A study of Mus musculus with 7 samples.

Results

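Heme and iron handling was followed in 10 mouse genes chosen by name: Hmox1, Hmox2, Slc40a1, Cd163, Tfrc, Fth1, Ftl1, Slc11a1, Slc11a2 and Slc48a1. Each name matched 1 of the 50435 gene rows of the deposited expression table. The table covers 7 RNA-seq libraries of cells sorted from mouse bone marrow. All recipients were irradiated wild-type mice transplanted with Zbtb46dtr marrow, in which a diphtheria toxin receptor is driven by Zbtb46, a gene whose expression among immune cells is a hallmark of classical dendritic cells. At 8 weeks after transplant, 3 samples came from mice given 200 ng of diphtheria toxin (DT) in 100 µl of PBS into the peritoneum, and 4 came from mice given the same volume of PBS alone. Marrow was taken 1 day after the injection, and the animals' ages were not among the labels. The toxin kills cells that carry the receptor, and the allele was carried by donor-derived cells in both groups and not by cells of the recipients. Cells negative for CD45, Ter119, Gr1 and CD11b, positive for CD31 and negative for Sca1 were sorted and labelled sinusoidal endothelial cells. The labels call the samples biological replicates.

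Macrophages that clear old red cells free iron from heme with heme oxygenase, whose products are iron, carbon monoxide and biliverdin. Most other cells, erythroid precursors above all, import iron bound to transferrin through the transferrin receptor and move it out of the endosome through a divalent metal transporter. Surplus iron is stored in a shell of ferritin heavy and light chains or leaves the cell through ferroportin, the only known vertebrate iron exporter. Iron regulatory proteins match these steps to supply: when iron is scarce they bind a hairpin, the iron-responsive element, blocking translation of ferritin mRNA and protecting transferrin receptor mRNA from decay.

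The hairpins are shown because the same loop stands at opposite ends of the mRNAs printed here. It lies before the coding sequence of both ferritin genes and after that of Tfrc. Sites were read from GENCODE vM21 transcripts on mm10, and their loop, CAGTGN, is in capitals. They lie at chr19:9982732-9982761 on the plus strand in the 5′ UTR of Fth1, and at chr7:45459778-45459807 on the minus strand in the 5′ UTR of Ftl1. In the 3′ UTR of Tfrc, on the plus strand, the sites found lie at chr16:32631219-32631248, chr16:32631598-32631627, chr16:32631663-32631692 and chr16:32631710-32631739, in the order printed. The letters mark that order only.
Fth1: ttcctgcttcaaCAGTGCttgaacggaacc
Ftl1: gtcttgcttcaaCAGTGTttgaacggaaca
Tfrc site A: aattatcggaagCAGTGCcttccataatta
Tfrc site B: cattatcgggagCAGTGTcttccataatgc
Tfrc site C: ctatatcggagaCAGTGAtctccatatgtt
Tfrc site D: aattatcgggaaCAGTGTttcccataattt
The pattern searched was a C, 5 stem bases, the loop and 5 bases pairing with the stem, with G-T pairs allowed, on the transcript strand. Of 21877 protein-coding genes, 294 (1.34%) held it in at least 1 transcript. A match describes letters and is not evidence of binding. Sites are printed only for followed genes that had an entry among the promoter sequences used. Hmox1, Slc40a1, Slc11a2 and Slc48a1 had no such entry. That no site is printed for them does not show that they lack the hairpin.

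Levels are given as RPM, the reads of a gene for every 1000000 reads of its library. Library depth, inferred from the value of a single read, was 33200000 to 51200000 reads, so that 3 reads equal 0.0585 to 0.0904 RPM. Pairs of DT libraries correlated at 0.962 to 0.966 (Pearson, log2 scale), pairs of PBS libraries at 0.908 to 0.963 and mixed pairs at 0.798 to 0.875. The label was not borne out by endothelial genes. The 12 endothelial markers summed to 10.2 to 18.7 RPM in DT and 1.45 to 9.35 RPM in PBS, and Cdh5, the endothelial cadherin, averaged 2.10 RPM in DT and 0.811 RPM in PBS. Of the 12, 3 passed the filter on low values, 1 of them, Flt1, was higher in DT, and Emcn was listed at 0 in 5 of the 7 libraries. Blood cell genes were abundant, so the samples are called sorted marrow cells here. PBS replicate 1 stood apart from the other PBS libraries: its 16 erythroid markers summed to 924 RPM, against 6915 to 11271 RPM in the others. In such bulk samples, fewer cells of a type and less RNA per cell cannot be told apart.

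The comparison asked how the RNA of these cells differed 1 day after DT. Hmox1, Slc40a1, Slc11a1 and Ftl1 were higher in DT, Tfrc and Slc11a2 were lower, and Hmox2, Cd163, Fth1 and Slc48a1 did not pass the threshold (limma, Benjamini-Hochberg adjusted p under 0.05 over 14100 genes). All 10 genes passed the filter on low values, a mean of 1 RPM over the 7 libraries. The 6 calls among 10 genes stand against 32.0% of all genes tested, with 13.4% of all genes higher and 18.6% lower. The libraries of the groups did not overlap for the same 6 genes, against 40.9% of all genes tested. The number higher was 3 without any 1 of DT replicates 2 and 3 and PBS replicates 3 and 4, since Ftl1 was lost, and the number lower was 2 without any 1 library. The median change of all genes tested was -0.23 on the log2 scale, and a scaling by median ratios moved it to -0.023. Log2 changes here are differences of mean log2(RPM + 1), DT minus PBS, which understate changes of genes at low levels, whereas folds are ratios of group means in RPM.

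**Figure D1:**
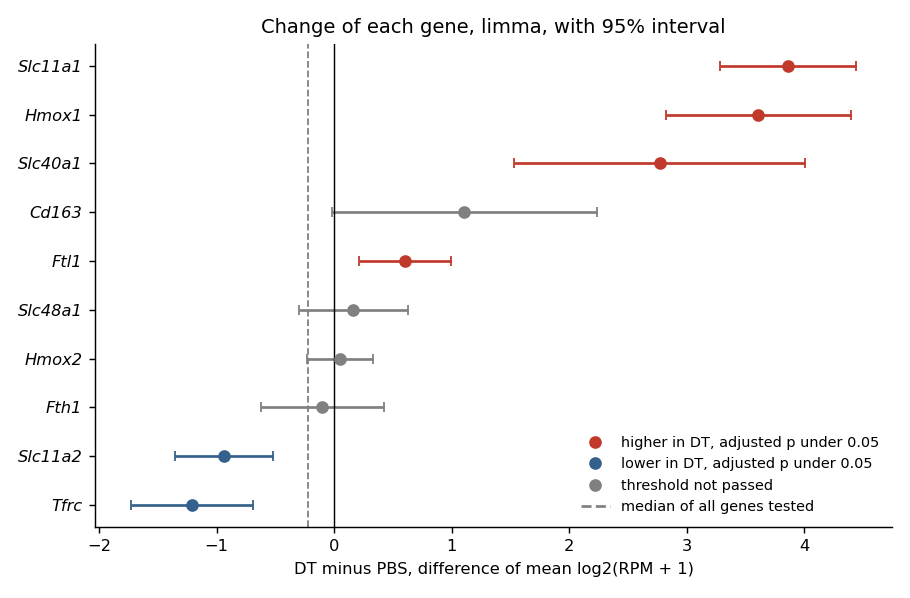
Log2 change of each of the 10 genes, DT minus PBS, as the difference of mean log2(RPM + 1) with its 95% interval from limma. Slc11a1, Hmox1, Slc40a1 and Ftl1 lie to the right of 0 and Slc11a2 and Tfrc to the left, while the dashed line marks the median of all genes tested, -0.23.

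Among steps of heme breakdown, the inducible heme oxygenase gene was higher in DT and the constitutive one showed no change past the threshold. Hmox1 (chromosome 8, 75093621 to 75100589, plus strand, mm10) encodes the enzyme form that cells raise on exposure to heme and oxidants. It was at 129.7, 122 and 349.9 RPM in DT replicates 1 to 3, and at 15.8, 9.69, 13.3 and 16.6 RPM in PBS replicates 1 to 4. Every DT library lay above every PBS library, and DT replicate 3 was well above the other DT libraries. The mean was 200.4 ± 130 RPM in DT and 13.9 ± 3.11 RPM in PBS (± is the SD here and throughout, with n = 3 DT and n = 4 PBS libraries), a 14.5-fold difference. On the log2 scale the change was 3.61 with an SE of 0.35 (limma, adjusted p = 7.15e-05), and it was 3.12 without DT replicate 3 (limma, adjusted p = 1.15e-04).

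Hmox2 (chromosome 16, 4726361 to 4766742, plus strand) encodes the form present in most cells without induction. It was at 111, 122 and 116 RPM in DT, and at 118, 111, 102 and 118 RPM in PBS. The groups overlapped, and the 7 libraries lay close together. The log2 change was 0.052 with a 95% interval of -0.23 to 0.33 (limma, adjusted p = 0.783). Hmox2 overlaps Cdip1 on the opposite strand and Gm15859 on the same strand. Its values were not whole reads, within 0.05 of a read, in any library, and reads shared with other rows cannot be told apart from the table. Per kilobase of transcript, Hmox1 was at 128 ± 82.6 and Hmox2 at 67.1 ± 3.28 RPM per kb in DT. In PBS Hmox1 was at 8.83 ± 1.98 and Hmox2 at 64.8 ± 4.38 RPM per kb, so that Hmox2 was the more abundant form there.

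Downstream of both enzymes, biliverdin is reduced to bilirubin. Blvrb, a reductase gene known for its high expression in red cells, fell 5.41-fold, to 53.2 ± 1.51 RPM in DT against 288 ± 121 RPM in PBS (limma, adjusted p = 4.29e-04). Blvra, the other biliverdin reductase gene, was at 50.6 ± 6.75 RPM in DT and 50.6 ± 19.5 RPM in PBS and was not called. Of the 4 genes listed for heme breakdown, 1 was higher and 1 lower, with a median log2 change of 0.063. List counts here and below stand beside 13.4% higher and 18.6% lower of all genes tested. The lists are short, and their counts are described with no test.

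Cd163 and Slc48a1 stand for heme arriving from outside the cytosol, and neither passed the threshold. Cd163 (chromosome 6, 124304656 to 124330527, plus strand) encodes the macrophage receptor for haptoglobin-bound hemoglobin. It was at 2.72, 4.68 and 18.6 RPM in DT, and at 1.87, 2.63, 3.14 and 2.33 RPM in PBS. The groups overlapped, since DT replicate 1 lay below PBS replicate 3, and DT replicate 3 was far above all other libraries. With an estimated 62 to 954 reads per library behind these values, the log2 change was 1.11 with a 95% interval of -0.02 to 2.24 (limma, adjusted p = 0.119). It was 0.41 without DT replicate 3 (limma, adjusted p = 0.447) and 1.61 without DT replicate 1 (limma, adjusted p = 0.0484).

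Slc48a1 (chromosome 15, 97778520 to 97792692, plus strand) encodes a heme transporter that carries heme out of the lysosome. It was at 85.3, 78.0 and 92.1 RPM in DT, and at 58.3, 103, 62.8 and 87.3 RPM in PBS. The DT libraries fell within the range of the PBS libraries. The log2 change was 0.16 with a 95% interval of -0.30 to 0.63 (limma, adjusted p = 0.578). Hdac7 overlaps it on the opposite strand, and use of strand in the counting is not given in the sources used here.

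Of 7 tested genes of heme and hemoglobin transport, 2 were higher and 0 lower in DT, and their median log2 change was 0.36. Without PBS replicate 1, 2 of them were lower. Hp, which encodes haptoglobin, the plasma protein that binds free hemoglobin, averaged 1562 ± 94.7 RPM in DT and 61.4 ± 14.2 RPM in PBS, a 25.4-fold difference (limma, adjusted p = 7.76e-07). Lrp1, whose product takes up heme bound to hemopexin, was at 14.3 ± 3.47 RPM in DT and 1.78 ± 1.05 RPM in PBS (limma, adjusted p = 6.30e-04). Hpx, the hemopexin gene, lay under the filter. Flvcr1 and Flvcr2 were not analysed here.

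**Figure D2:**
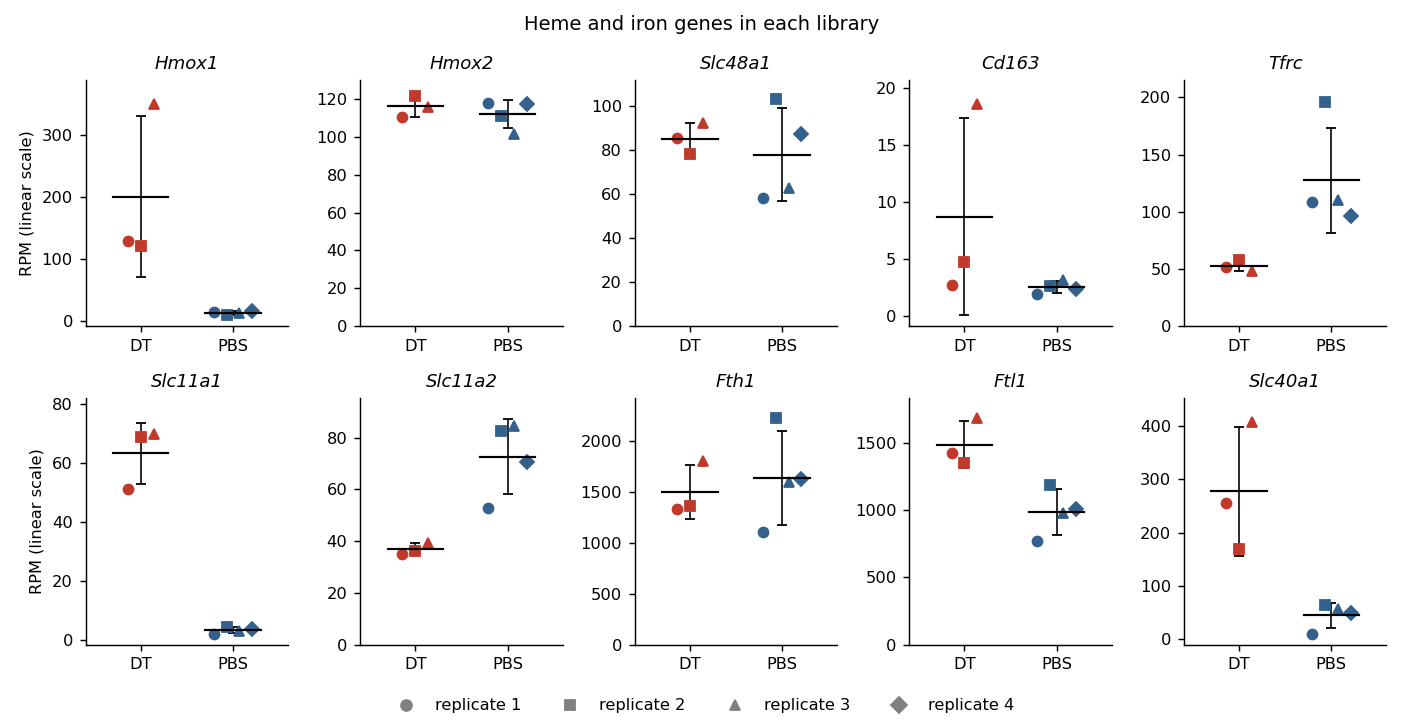
Level of each of the 10 genes in every library in RPM on a linear scale, with DT libraries in red and PBS libraries in blue; marker shapes give the replicate number, horizontal bars the group mean and whiskers the SD. The DT libraries lie above all PBS libraries for Hmox1, Slc11a1, Ftl1 and Slc40a1 and below them for Tfrc and Slc11a2.

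Of the 3 genes listed under iron uptake among the 10, Tfrc and Slc11a2 fell in DT and Slc11a1 rose. Tfrc (chromosome 16, 32608920 to 32632794, plus strand) encodes transferrin receptor 1. It was at 51.5, 57.5 and 48.5 RPM in DT, and at 108, 196, 110.1 and 95.9 RPM in PBS. No library of one group reached the range of the other, and PBS replicate 2 was far above the other PBS libraries. The mean fell 2.43-fold, to 52.5 ± 4.58 RPM in DT against 128 ± 46.0 RPM in PBS, with a log2 change of -1.21 and an SE of 0.23 (limma, adjusted p = 0.00390). It was -0.98 without PBS replicate 2 (limma, adjusted p = 0.00108).

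Slc11a2 (chromosome 15, 100387898 to 100425072, minus strand) encodes the divalent metal transporter that moves iron out of the endosome after transferrin uptake. It was at 35.1, 36.1 and 39.5 RPM in DT, and at 52.8, 82.8, 84.4 and 70.8 RPM in PBS. The DT libraries lay together below all PBS libraries, and PBS replicate 1 was the lowest of its group. The mean fell 1.97-fold, to 36.9 ± 2.27 RPM in DT against 72.7 ± 14.6 RPM in PBS, with a log2 change of -0.94 and an SE of 0.19 (limma, adjusted p = 0.00475). Gm5475 overlaps it on the opposite strand, at no more than 0.923 RPM in any library.

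Slc11a1 (chromosome 1, 74375195 to 74386062, plus strand) encodes a transporter of the phagosome membrane of macrophages and neutrophils that moves divalent metals away from ingested microbes. It was at 51.3, 69.0 and 69.9 RPM in DT, and at 2.20, 4.57, 3.27 and 3.85 RPM in PBS. Every DT library was more than an order of magnitude above the PBS mean. The mean was 63.4 ± 10.5 RPM in DT and 3.47 ± 1.00 RPM in PBS, an 18.2-fold difference and the largest log2 change of the 10 genes, 3.86 with an SE of 0.26 (limma, adjusted p = 6.65e-06).

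Of 9 tested genes of iron uptake, 3 were higher and 5 lower in DT, with a median log2 change of -0.94. Beside Slc11a1, the genes that rose were Lcn2 and Trf. Lcn2, a neutrophil granule protein that binds bacterial iron carriers, averaged 3299 ± 189 RPM in DT and 143 ± 39.6 RPM in PBS, and it is also counted among the neutrophil markers. Trf, the transferrin gene, was at 123 ± 61.2 RPM in DT and 35.3 ± 15.3 RPM in PBS (limma, adjusted p = 0.00717). Slc39a8, a zinc transporter that can also carry iron, fell to 1.78 ± 0.825 RPM in DT, against 7.41 ± 3.17 RPM in PBS (limma, adjusted p = 0.0110). Tfr2, the second transferrin receptor gene, expressed by erythroid precursors, was at 7.21 ± 3.34 RPM in DT and 57.7 ± 36.3 RPM in PBS with overlap between the groups (limma, adjusted p = 0.0376). That call was lost without any 1 of DT replicates 1, 2 and 3 or PBS replicates 2, 3 and 4. The count of lower genes on this list was 3 without any 1 of the same 6 libraries and 5 without PBS replicate 1.

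Ferritin was the most abundant of these products at the RNA level, and its chains differed in their calls. Fth1 (chromosome 19, 9980598 to 9985098, plus strand) encodes the heavy chain, which oxidises iron for storage. It was at 1329, 1357 and 1801 RPM in DT, and at 1104, 2228, 1595 and 1625 RPM in PBS. The groups overlapped, with both the lowest and the highest value in PBS. The log2 change was -0.10 with a 95% interval of -0.62 to 0.42 (limma, adjusted p = 0.770), and its sign turned when PBS replicate 2 was left out and when libraries were scaled by median ratios.

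Ftl1 (chromosome 7, 45457944 to 45459884, minus strand) encodes the light chain, which helps the iron core form. It was at 1425, 1356 and 1687 RPM in DT, and at 775, 1189, 984 and 1012 RPM in PBS. All DT libraries lay above all PBS libraries, with PBS replicate 2 the nearest to them. The mean was 1489 ± 175 RPM in DT and 989.9 ± 170 RPM in PBS, a 1.50-fold difference with a log2 change of 0.60 and an SE of 0.17 (limma, adjusted p = 0.0267). The call is fragile: leaving out any 1 of DT replicates 1, 2 and 3 or PBS replicates 3 and 4 raised the adjusted p to between 0.0547 and 0.126 (limma), at log2 changes of 0.51 to 0.66.

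Copies of the ferritin genes make these values less certain. Ftl1-ps1, annotated as a pseudogene of Ftl1, was at 1343 ± 160 RPM in DT and 857 ± 149 RPM in PBS, which is 85.7% to 92.1% of Ftl1 in the same library. Ftl1 values were not whole reads in any library, and reads shared by both rows cannot be assigned from the table. Summed over its 4 rows, the light chain family stood at 2834 ± 334 RPM in DT and 1848 ± 319 RPM in PBS. The heavy chain family, 12 rows, summed to 1510 ± 268 RPM in DT and 1654 ± 465 RPM in PBS, nearly all of it in Fth1. Fth-ps3, its most abundant pseudogene, averaged 13.9 RPM in DT and 14.5 RPM in PBS.

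Of the 5 tested genes of iron storage, 2 were higher and 2 lower in DT, with a median log2 change of -0.10. Ncoa4, the receptor that delivers ferritin to the lysosome to free its iron, was at 46.8 ± 4.45 RPM in DT and 20.3 ± 8.40 RPM in PBS (limma, adjusted p = 0.00726). Pcbp1 and Pcbp2, chaperones that bring iron to ferritin, moved the other way. Pcbp2 fell to 100.2 ± 8.85 RPM in DT against 157 ± 28.0 RPM in PBS (limma, adjusted p = 0.0153), and Pcbp1 fell to 47.9 ± 10.6 RPM in DT against 93.9 ± 31.3 RPM in PBS (limma, adjusted p = 0.0281). Under median-ratio scaling neither call held, with adjusted p of 0.0890 for Pcbp2 and 0.0697 for Pcbp1 (limma). The lower calls of this list numbered 0 without DT replicate 3 and 1 without any 1 of DT replicate 1 and PBS replicates 2, 3 and 4. The higher calls, Ftl1 and Ncoa4, numbered 1 without any 1 of DT replicates 1, 2 and 3 and PBS replicates 3 and 4.

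Slc40a1 (chromosome 1, 45908068 to 45926523, minus strand) encodes ferroportin, abundant in macrophages that recycle red cell iron. It was at 256, 169 and 406 RPM in DT, and at 10.4, 64.2, 56.2 and 49.8 RPM in PBS. All DT libraries were above all PBS libraries, DT replicate 3 was the highest, and PBS replicate 1 was far below its group. The mean was 277 ± 120 RPM in DT and 45.2 ± 23.9 RPM in PBS, a 6.13-fold difference with a log2 change of 2.77 and an SE of 0.56 (limma, adjusted p = 0.00494). The log2 change was 2.18 without PBS replicate 1 (limma, adjusted p = 2.67e-04) and 2.45 without DT replicate 3 (limma, adjusted p = 0.0275). Leaving out both gave 1.86 (limma, adjusted p = 3.33e-04). Cp and Heph, the oxidases that work with ferroportin, lay under the filter.

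Per kilobase of transcript, the 10 genes spanned 1.97 to 1539 RPM per kb in DT and 0.566 to 1096 RPM per kb in PBS. The ferritin chains led in both groups, with Ftl1 at 1539 ± 180 and Fth1 at 1001 ± 177 RPM per kb in DT, and Fth1 at 1096 ± 308 and Ftl1 at 1023 ± 175 RPM per kb in PBS. It is stated below where ranges of 1 SD around the mean overlapped, as those of Fth1 and Ftl1 did in PBS. Overlap is a description with no test. It does not compare genes within a library and does not show that levels are equal. In DT the order after ferritin was Hmox1, Slc40a1, Hmox2, Slc48a1, Slc11a1, Slc11a2, Tfrc and Cd163. The ranges of Hmox1, Slc40a1 and Hmox2 overlapped in DT, at 128 ± 82.6, 82.2 ± 35.6 and 67.1 ± 3.28 RPM per kb. So did those of Slc48a1 and Slc11a1, at 33.6 ± 2.78 and 27.4 ± 4.52 RPM per kb, and those of Slc11a2 and Tfrc, at 12.2 ± 0.752 and 10.7 ± 0.938 RPM per kb. In PBS the order after ferritin was Hmox2, Slc48a1, Tfrc, Slc11a2, Slc40a1, Hmox1, Slc11a1 and Cd163. There each neighbouring pair from Slc48a1 to Hmox1 overlapped, with Slc48a1 at 30.7 ± 8.35, Tfrc at 26.1 ± 9.41, Slc11a2 at 24.0 ± 4.83, Slc40a1 at 13.4 ± 7.10 and Hmox1 at 8.83 ± 1.98 RPM per kb.

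Ratios of genes in the same library do not depend on how libraries are scaled, and 4 were compared. They are ratios of RPM with no correction for transcript length, so they compare libraries and do not rank the 2 genes of a pair. The ratio of Hmox1 to Hmox2 was 1.17, 0.997 and 3.02 in DT, and 0.134, 0.0872, 0.131 and 0.141 in PBS. The ratio of Slc40a1 to Tfrc, exporter over importer, was 4.97, 2.94 and 8.38 in DT, and 0.0956, 0.328, 0.511 and 0.520 in PBS. For both of these ratios every DT library lay above every PBS library. The ratio of Slc11a1 to Slc11a2 was 1.46, 1.91 and 1.77 in DT, and 0.0417, 0.0553, 0.0387 and 0.0545 in PBS. The ratio of Fth1 to Ftl1 was 0.932, 1.00 and 1.07 in DT, and 1.43, 1.87, 1.62 and 1.61 in PBS. Each of the 4 differed between groups without overlap, by 3.65, 4.04, 5.18 and -0.70 as a difference of mean log2 ratios in the order given. The exact two-sided permutation test gave p = 0.0286 for each, the smallest that 35 splits allow, and 0.0286 after adjustment over the 4. For Slc40a1 to Tfrc and Slc11a1 to Slc11a2 this outcome was fixed by the single genes. Their groups did not overlap, in opposite directions. For Hmox1 to Hmox2 it was fixed by Hmox1, at 121.6 RPM or more in DT and 16.6 RPM or less in PBS. Hmox2 lay between 101.8 and 121.9 RPM in every library. Ratios other than Fth1 to Ftl1 therefore add no separate support.

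**Figure D3:**
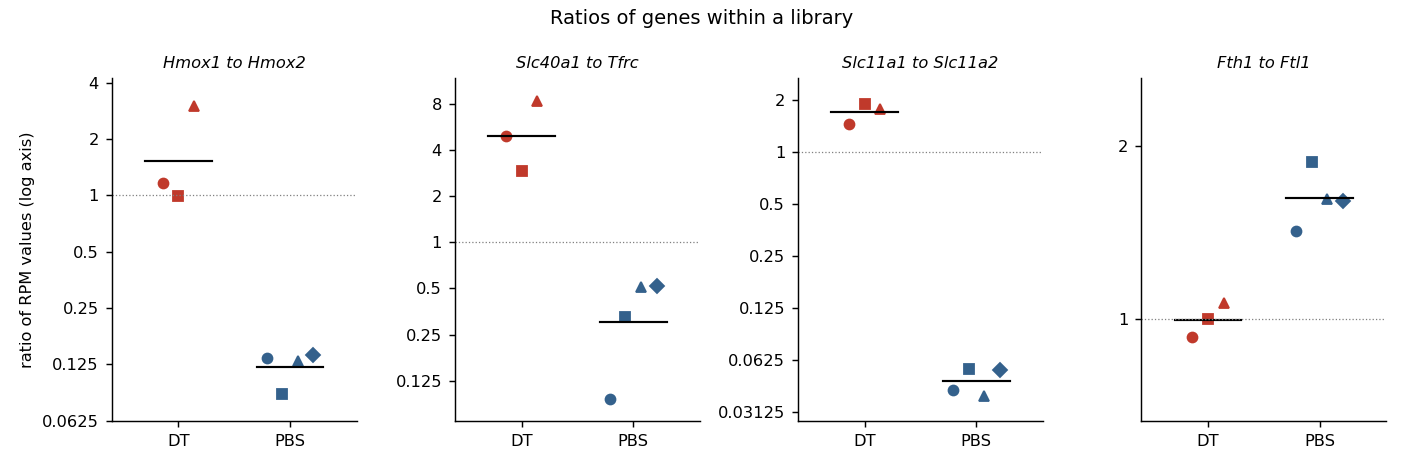
Ratios of RPM values of gene pairs within each library on log axes, with DT libraries in red left of PBS libraries in blue; marker shapes give the replicate number and bars the mean of the log ratios, and the dotted line is a ratio of 1 without correction for transcript length. The ratios of Hmox1 to Hmox2, Slc40a1 to Tfrc and Slc11a1 to Slc11a2 are higher in all DT libraries, and that of Fth1 to Ftl1 is lower.

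Beyond the 10 genes, 57 other genes of the pathway lists passed the filter, of 71 found in the table. They include 7 listed as Hmox1 regulators, 2 of them higher and 0 lower, and 12 other Nrf2 targets, 5 higher and 3 lower. The counts are thus not of heme and iron genes alone. Of the 57, 14 (24.6%) were higher and 19 (33.3%) lower in DT, beside 13.4% and 18.6% of all genes tested. Their median log2 change was -0.30 beside -0.23 for all genes. Leaving out DT replicate 3 reduced the count of lower genes to 7, leaving out DT replicate 1 to 11 and leaving out PBS replicate 3 to 12, whereas the count of higher genes stayed between 13 and 14 over the fits that leave out 1 library.

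Genes of mitochondrial iron import and iron-sulfur cluster assembly were lower in DT where they were called. Of 17 tested, 9 (52.9%) were lower and 0 higher, beside 18.6% and 13.4% of all genes tested, with a median log2 change of -0.95. Median-ratio scaling gave 7 lower and 1 higher. The lower calls numbered 4 without the filter and 7 with the replicate block. Bola3 and Hscb, which help hand clusters on, and Fdx1, a cluster-bearing ferredoxin, fell (limma, adjusted p = 0.00744, 0.00799 and 0.0113 in that order). Bola3 was at 14.4 ± 1.12 RPM in DT and 39.3 ± 15.3 RPM in PBS, Hscb at 9.47 ± 0.224 RPM in DT and 20.2 ± 3.97 RPM in PBS, and Fdx1 at 2.68 ± 0.317 RPM in DT and 9.86 ± 5.06 RPM in PBS. Slc25a37, an importer of iron into mitochondria of erythroid cells, was at 55.2 ± 3.75 RPM in DT and 61.5 ± 6.61 RPM in PBS and was not called. The 9 lower calls became 4 without DT replicate 3, 6 without any 1 of DT replicates 1 and 2 and PBS replicate 3, and 11 without PBS replicate 1.

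Among 5 tested genes of iron sensing, 2 were higher and 1 lower, with a median log2 change of -0.016. Aco1 and Ireb2, which encode the iron regulatory proteins that bind the hairpins shown above, were not called. Aco1 was at 20.0 ± 3.02 RPM in DT and 21.5 ± 8.30 RPM in PBS, and Ireb2 at 34.5 ± 7.87 RPM in DT and 48.4 ± 9.38 RPM in PBS. Fbxl5, the iron-sensing adaptor that marks the regulatory protein encoded by Ireb2 for degradation, was at 160 ± 23.2 RPM in DT and 67.6 ± 25.3 RPM in PBS (limma, adjusted p = 0.00389). Skp1a, a subunit shared by many ubiquitin ligases including that of Fbxl5, fell to 147 ± 19.3 RPM in DT against 244 ± 35.4 RPM in PBS (limma, adjusted p = 0.00841), and this call was lost without DT replicate 3 (limma, adjusted p = 0.0509). Hfe, the hemochromatosis gene, was at 12.8 ± 5.33 RPM in DT and 2.39 ± 1.16 RPM in PBS (limma, adjusted p = 0.00627).

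Genes listed as regulators of Hmox1 were tested at the RNA level, which says nothing of their protein. The list also holds Spic, which is counted here but is not claimed to regulate Hmox1. Of 7 tested, 2 were higher, Spic and Mafg, and 0 lower, with a median log2 change of 0.22. Spic, a transcription factor needed for red pulp macrophages, which recycle iron in the spleen, averaged 21.1 ± 13.1 RPM in DT and 0.918 ± 0.835 RPM in PBS, a 23.0-fold difference (limma, adjusted p = 5.25e-04), and it is also among the macrophage markers. Mafg, a small Maf protein that pairs with Nrf2 or Bach1 on DNA, was at 83.5 ± 10.2 RPM in DT and 22.9 ± 9.05 RPM in PBS (limma, adjusted p = 6.41e-04). Nfe2l2, which encodes the activator Nrf2, was at 142 ± 11.0 RPM in DT and 124 ± 28.0 RPM in PBS, and Bach1, the heme-sensitive repressor, at 12.7 ± 1.40 RPM in DT and 9.28 ± 1.29 RPM in PBS. Neither was called, nor was Keap1, the adaptor that holds Nrf2 back.

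The other known Nrf2 targets did not move together. Of 12 tested, 5 were higher and 3 lower, with a median log2 change of -0.10. Slc7a11, the cystine importer, averaged 23.3 ± 7.04 RPM in DT and 0.637 ± 0.560 RPM in PBS. Gsr, glutathione reductase, was at 272 ± 54.1 RPM in DT and 36.3 ± 7.38 RPM in PBS. G6pdx, which supplies NADPH, and Osgin1, a stress-induced growth regulator, also rose, with G6pdx at 274 ± 3.68 RPM in DT and 57.5 ± 13.7 RPM in PBS and Osgin1 at 36.5 ± 9.40 RPM in DT and 1.14 ± 0.896 RPM in PBS. Nqo1, Gclm and Gclc, often used to read out Nrf2, were lower. Gclc, the catalytic subunit of glutathione synthesis, fell to 19.3 ± 0.390 RPM in DT against 63.6 ± 14.3 RPM in PBS (limma, adjusted p = 2.19e-04). Without DT replicate 1 or 3 the lower calls of this list numbered 1, and without DT replicate 2 or PBS replicate 2, 3 or 4 they numbered 2.

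**Figure D4:**
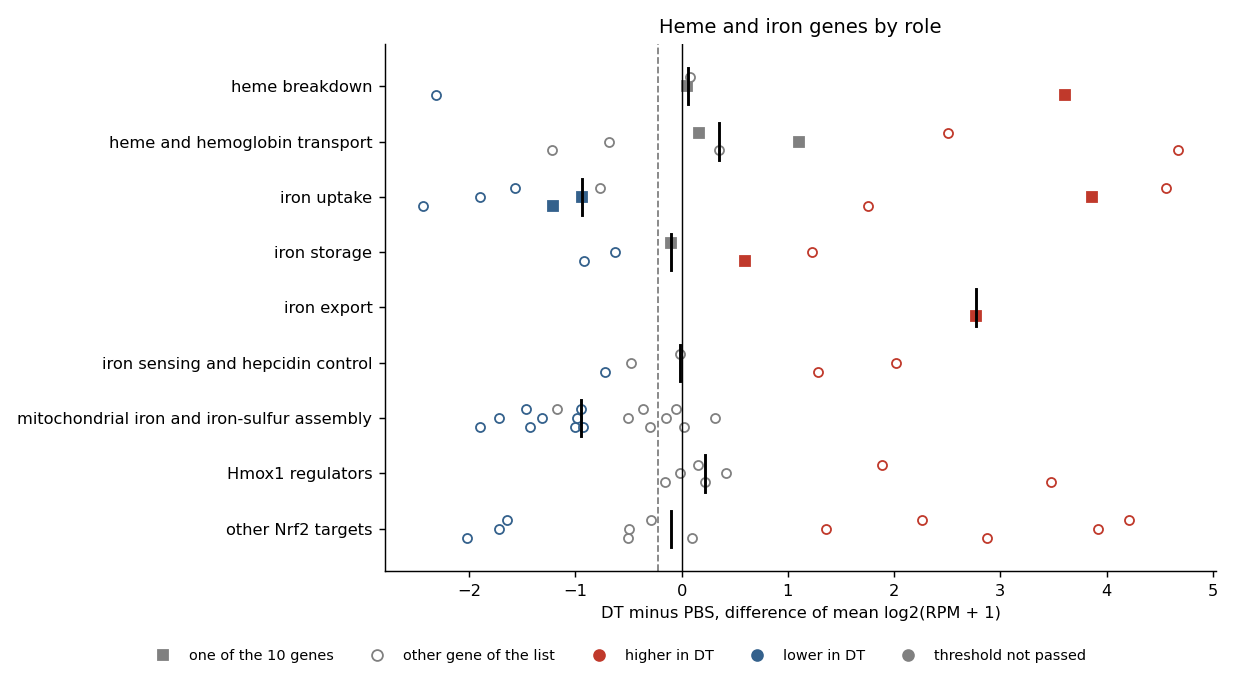
Log2 change, DT minus PBS, of every tested gene by role, with filled squares for the 10 genes and open circles for other genes; red is higher in DT, blue lower, grey not past the threshold. Black ticks give the median of each list and the dashed line the median of all genes tested, -0.23; the calls for mitochondrial iron and iron-sulfur assembly, 9 of 17 genes, all lie to the left of 0.

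The genes whose profile over the 7 libraries was most like that of Hmox1 were C1qb, Cd5l, Fcgr1, Ifi204 and Osm. Likeness was the root mean square difference of log2(RPM + 1) profiles, each centred on its mean, and it was 0.20 for C1qb and 0.34 to 0.37 for the other four. C1qb, a complement subunit made by macrophages, was at 33.6, 41.4 and 101 RPM in DT, and at 5.21, 1.84, 3.56 and 5.64 RPM in PBS. Like Hmox1, it was highest in DT replicate 3 and lowest in PBS replicate 2. The genes most like Tfrc were Alyref, Rgs10, Ddx17, Pex6 and Zfp800, with differences of 0.10 to 0.14. Alyref, an mRNA export factor, was at 22.7, 23.9 and 17.6 RPM in DT, and at 48.0, 76.1, 48.8 and 41.9 RPM in PBS. These genes are listed for their profiles alone, with no test.

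Markers of several blood cell types moved with these genes. The 16 macrophage markers summed to 469.8, 395 and 982 RPM in DT, and to 61.9, 47.0, 40.9 and 49.0 RPM in PBS, and 12 of the 13 tested were higher in DT. The highest sum was in DT replicate 3, where Hmox1, Slc40a1 and Cd163 were highest too. So were Slc11a1 and Ftl1 there, and the monocyte and endothelial sums, at 8853 and 18.7 RPM. Vcam1, an adhesion molecule of such macrophages, was at 147, 95.8 and 334 RPM in DT and 7.51 to 13.5 RPM in PBS. Cd68, a lysosomal protein of phagocytes, was at 97.6, 84.2 and 159 RPM in DT and 4.27 to 15.8 RPM in PBS. Siglec1, Timd4 and Marco lay under the filter, and Timd4 was listed at 0 in all libraries but DT replicate 3.

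The 14 neutrophil markers summed to 60473 to 64974 RPM in DT and 2042 to 4516 RPM in PBS, and the 9 monocyte markers to 7119 to 8853 RPM in DT and 413 to 896 RPM in PBS. All 14 and all 9 were higher in DT, as were Slc11a1, Hp and Lcn2. The erythroid sum was 1522 to 2038 RPM in DT, against 924 RPM in PBS replicate 1 and 6915 to 11271 RPM in PBS replicates 2 to 4, with 3 of 16 markers higher and 10 lower in DT. The 3 that rose were Hbb-bs, Hba-a1 and Alas2, with log2 changes of 1.82, 1.57 and 2.26 in that order. Their adjusted p was 0.00803, 0.0242 and 0.00261 in the same order (limma). Car1, a carbonic anhydrase of red cell precursors, was among the 10 that fell. It was at 79.9, 103 and 45.1 RPM in DT, and at 229.9, 3651, 2420 and 2338 RPM in PBS. Tfrc, Slc11a2, Blvrb and Tfr2, which erythroid precursors express, were lower in DT, and Tfrc was highest in PBS replicate 2, as was the erythroid sum. Tfrc in PBS replicate 1 was nonetheless 108 RPM, between PBS replicates 4 and 3, although the erythroid sum of that library was the lowest of all. The 9 B lineage markers summed to 4889 to 5919 RPM in DT and 5806 to 10479 RPM in PBS, with 0 higher and 6 lower. How far the number of cells of each type accounts for the changes of the iron genes was not tested.

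**Figure D5:**
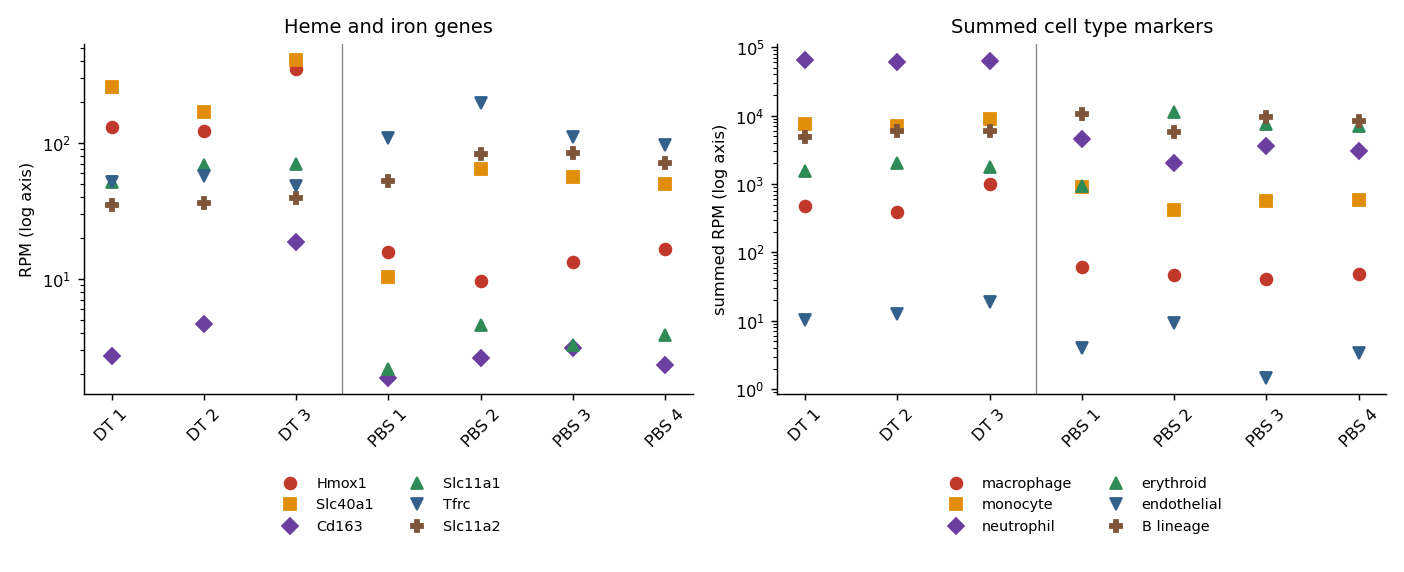
Levels of 6 heme and iron genes in RPM (left) and summed cell type markers in RPM (right) in each library, both on log axes, with DT libraries left of the vertical line and PBS libraries right of it. The macrophage sum is highest in DT replicate 3, at 982 RPM, as are the monocyte and endothelial sums and Hmox1, Slc40a1, Cd163 and Slc11a1. The erythroid sum is lowest in PBS replicate 1, at 924 RPM.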

How the data were processed

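The data are 3 DT and 4 PBS libraries of sorted marrow cells. Per the labels' protocols, each began with 1 ng of RNA, was amplified over 14 cycles and was sequenced in single reads of 50 bases. Floors in reads cover counting error alone, since amplified copies of a molecule are not independent. The submitters' processing notes name Partek, STAR 2.5.3a and mm10. Which annotation, counting settings or strand option applied is not given in the sources used here.

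FPKM stands in the name of the deposited table. The deposited values behave as RPM: in each library 1 smallest step was shared by 1031 to 1209 genes whose lengths ran from 112 to 208 nt (10th percentile) to 4718 to 5297 nt (90th percentile). The design had assumed FPKM, and its test was kept. Zero is written as 0.0001. Up to 20 steps, 60.4% to 62.4% of values were whole within 0.02 of a step, so no count model was the main test.

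Values were transformed as log2(RPM + 1). Genes averaging at least 1 RPM over the 7 libraries (14100) were fitted together with limma 3.58.1 in R 4.3.3 with an intensity trend. P-values are two-sided and were adjusted by Benjamini-Hochberg, with calls at 0.05. Fits were tested on simulated data. Ratios were compared by exact permutation. RPM per kb divides by the length of 1 annotated GENCODE vM21 transcript. Alternatives covered the pseudocount, filter, scaling, trend, sample weights, voom on reads estimated from the steps, a replicate block and leaving out each library. Leaving out both replicates numbered 1, or PBS replicate 1 with DT replicate 3, was added after seeing the data. Whether equal replicate numbers mark pairs was checked from the libraries' deviations.

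The 10 genes and the lists of pathway and marker genes were chosen with earlier results of these data known. Beyond the 10, genes named were the most significant calls of each pathway list, at most 4, the 5 most like Hmox1 and Tfrc, and copies of ferritin genes. The rule also takes the 2 most abundant genes of each marker list, of which only Vcam1, Cd68, Cdh5, Car1, Ly6c2 and Ighm are named with values, the others standing in the sums of their lists. Blvra, Aco1, Ireb2, Slc25a37, Nfe2l2, Bach1, Keap1, Nqo1, Gclm, Gclc, Hpx, Cp, Heph, Flt1, Emcn, Siglec1, Timd4, Marco, Alas2, Hbb-bs, Hba-a1 and genes overlapping the 10 were named after their values were seen. Of the genes this rule takes, 1 is not reported here.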

Additional observations from a re-analysis of the deposited data

Results flagged for a closer look

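In 7 of 55 named genes, 1 PBS library stood apart from the other PBS libraries by Dixon's test at its 95% critical value of 0.829 for 4 samples, where chance gives about 1 in 20. The DT group, with 3 libraries, was not tested. Tfrc, the only one of the 10 heme and iron genes among them, was at 196 RPM in PBS replicate 2 and at 95.9 to 110.1 RPM in the other PBS libraries. Rgs10 was at 70.8 RPM and Pex6 at 23.5 RPM in the same library, against 43.3 to 46.2 and 11.4 to 13.1 RPM in the others, and both had been named for their likeness to Tfrc. PBS replicate 1 held Ncoa4 at 32.8 RPM against 14.3 to 17.4 RPM, Ly6c2 at 178 RPM against 81.7 to 96.8 RPM, and Fcgr1 at 1.08 RPM against 0.0512 to 0.0792 RPM. Hfe was at 0.677 RPM in PBS replicate 4 and at 2.82 to 3.23 RPM in the other PBS libraries.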

How the results depend on the processing

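Hmox1, Slc40a1, Slc11a1, Tfrc and Slc11a2 kept their direction and their call under every alternative run, and Hmox2 stayed uncalled under all of them. Ftl1 lost its call with a log2 change of 0.60 without the filter and with no trend, 0.47 under quantile scaling, 0.62 with the replicate block, 0.52 without both replicates numbered 1 and 0.39 without PBS replicate 1 and DT replicate 3. Leaving out single libraries gave 0.49 to 0.69, with limma adjusted p of 0.0103 to 0.126. Cd163 ranged from 0.32 to 1.61 over fits that leave out libraries and was called without DT replicate 1 and, at 1.52, without both replicates numbered 1 (limma, adjusted p = 0.0494). Uncalled changes turned sign for Fth1, to 0.13 by median-ratio scaling and 0.061 without PBS replicate 2 (-0.42 to 0.061 over fits that leave out libraries), for Slc48a1, to -0.020 without PBS replicate 1 and DT replicate 3 (up to 0.31 without other libraries), and for Ighm, a B lineage marker, to 0.023 by median-ratio scaling and 0.079 without both replicates numbered 1.

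Of all genes tested, 1894 were higher and 2622 lower. The number lower was 1689 without the filter, 1574 with the replicate block and 1208 to 3628 without single libraries, with 1500, 1609 and 1208 without DT replicates 1, 2 and 3. Median-ratio scaling gave 2363 higher and 1321 lower. The 19 lower genes among other pathway genes became 8 without the filter, and 7 to 24 without single libraries. Without single libraries the differences of log2 ratios ranged from 3.16 to 3.96 for Hmox1 to Hmox2, 3.49 to 4.42 for Slc40a1 to Tfrc, 5.09 to 5.29 for Slc11a1 to Slc11a2 and -0.76 to -0.63 for Fth1 to Ftl1, with exact permutation p of 0.0667 or 0.1, the smallest such designs allow. Same-numbered DT and PBS samples deviated together with correlations of 0.010 to 0.049, so the numbers were not taken as pairs, and not every sample correlated best with its own number. The replicate block changed no call of the 10 genes other than that of Ftl1, and Slc39a8 lost its call under it (limma, adjusted p = 0.0526). Over all alternatives, the other named genes kept call and direction in 814 comparisons, lost the call in 30, gained it in 5 and turned sign in 2. The cause of these shifts was not tested. Fits that differ in samples or in genes tested also differ in power. Fewer samples did not always give fewer calls, since 3628 genes were lower without PBS replicate 1.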
